A study of Mus musculus with 12 samples.

Results

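The genes described here are 10 of the 25284 listed in a count table of mouse aortas: Pcx, which encodes pyruvate carboxylase, and 9 genes of the route by which pyruvate and citrate are turned into fatty acid (Slc25a1, Acly, Acss2, Acaca, Acacb, Fasn, Me1, Mdh1 and Thrsp). They were chosen by name for this route, and all 10 passed the filter on low counts, as did 15857 genes in all. The 12 mice were male, lacked apolipoprotein E (ApoE-/-, C57BL/6 background) and ate a diet rich in fat and cholesterol from 10 weeks of age, which leads to atherosclerosis in such mice. Control mice (6, called C1 to C6) received cyclodextrin vehicle, and treated mice (6, called A1 to A6) received AZ6983, an agonist of the α7 nicotinic acetylcholine receptor, at 50 µmol per kg per day in that vehicle. Implanted minipumps, replaced midway, delivered either one over 8 weeks, and the thoracic aorta was taken at 18 weeks. Total RNA freed of ribosomal RNA was sequenced in stranded libraries, so unspliced transcripts were sequenced as well.

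De novo lipogenesis builds fatty acids from surplus carbon. Pyruvate carboxylase makes oxaloacetate in mitochondria, which joins acetyl-CoA to form citrate. Citrate leaves the mitochondrion, is split again in the cytosol, and the acetyl-CoA set free is carboxylated to malonyl-CoA and joined into palmitate at the cost of NADPH. Liver and fat cells are known for high activity of this route, and brown fat, which surrounds the thoracic aorta of mice, makes and burns fatty acids at the same time. Whether the fat around the vessel was removed at dissection is not stated, and adipocyte transcripts were abundant in every library.

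Counts on genes were 23810036 to 35864666 per mouse, and each member had at least 3435 counts in every mouse. Values below are CPM, read counts put on a common library scale by the TMM method of edgeR, and tests are edgeR's quasi-likelihood tests over all genes that passed the filter, with Benjamini-Hochberg adjustment and a threshold of 10% FDR. Reads on no gene are those that fell on no counted feature. They may include reads in introns of annotated genes, which was not tested. They made up 8.02% to 12.7% of the reads in the table for control mice and 11.2% to 14.9% for AZ6983 mice (difference of means 2.71 percentage points, exact permutation test, two-sided, p = 0.0108, 0.152 after adjustment over 14 measures). Control C2, at 12.7%, lay within the AZ6983 range, and the other 5 controls had at most 10.4%. The libraries carry numbers from 1 to 12 of unstated meaning, of which C2 has 12 and the other controls 3 to 7. The library of A1 was matched to its mouse through 3 digits of a number with 4. Nothing in the labels says that mice were littermates or were handled in batches.

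On the mm10 assembly, with gene models of GENCODE M21, Pcx lies at chr19:4510472-4621752 on the plus strand, Acly at chr11:100476353-100528000 on the minus strand and Fasn at chr11:120805846-120824547 on the minus strand. Acaca (chr11:84129672-84401651, plus), Acacb (chr5:114146535-114250761, plus), Slc25a1 (chr16:17925223-17928219, minus) and Thrsp (chr7:97412938-97417730, minus) likewise share no exon with another annotated gene. Exons of Me1 (chr9:86581371-86695953, minus), Mdh1 (chr11:21556787-21572367, minus) and Acss2 (chr2:155517948-155585724, plus) overlap genes on the opposite strand, namely A330041J22Rik for Me1, Wdpcp for Mdh1, and Acss2os, Ggt7 and Gss for Acss2. The strand setting of the count is not stated, so for these 3 genes a part of the count may belong to the partner.

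The sequences before 4 transcription starts, of Pcx, Fasn and Acly, are shown as examples chosen after the values were seen. Whether they bear on how these genes varied between mice was not tested. RefSeq places a pair of starts in Pcx, the internal one far downstream of the other. Each sequence is the 250 bases before a start, read 5′ to 3′ on the strand of the gene from the GRCm38.p6 assembly, and capitals mark matches on either strand to the letters CACGTG (an E-box, bound by USF and ChREBP), CCAAT (bound by NF-Y) or GGGCGG (a GC box, bound by Sp1).
Pcx, upstream start, chr19:4510222-4510471, plus strand: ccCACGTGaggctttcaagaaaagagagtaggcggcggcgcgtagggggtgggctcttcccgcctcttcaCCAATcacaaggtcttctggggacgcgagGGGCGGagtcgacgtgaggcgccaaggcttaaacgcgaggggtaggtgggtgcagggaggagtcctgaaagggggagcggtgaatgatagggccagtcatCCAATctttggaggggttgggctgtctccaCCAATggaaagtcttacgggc
Pcx, internal start, chr19:4594069-4594318, plus strand: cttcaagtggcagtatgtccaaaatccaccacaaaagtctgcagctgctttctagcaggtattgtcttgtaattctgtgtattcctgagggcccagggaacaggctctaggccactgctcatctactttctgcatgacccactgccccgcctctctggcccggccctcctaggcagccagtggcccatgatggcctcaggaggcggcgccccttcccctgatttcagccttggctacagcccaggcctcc
Fasn, chr11:120824548-120824797, minus strand: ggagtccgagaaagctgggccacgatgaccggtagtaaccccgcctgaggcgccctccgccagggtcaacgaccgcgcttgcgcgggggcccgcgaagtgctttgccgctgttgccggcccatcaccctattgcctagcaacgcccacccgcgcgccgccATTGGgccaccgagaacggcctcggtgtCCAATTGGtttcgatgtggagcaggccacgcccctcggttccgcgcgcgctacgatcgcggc
Acly, chr11:100528001-100528250, minus strand: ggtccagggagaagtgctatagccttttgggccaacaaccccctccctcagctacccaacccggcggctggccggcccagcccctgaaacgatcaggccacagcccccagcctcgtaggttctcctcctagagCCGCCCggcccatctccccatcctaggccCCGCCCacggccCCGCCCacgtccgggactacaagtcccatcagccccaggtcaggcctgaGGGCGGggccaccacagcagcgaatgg
The window of the upstream start of Pcx held 1 CACGTG, 3 CCAAT and 1 GGGCGG, and that of the internal start held none of the 3. The Fasn window held 3 matches to CCAAT, at 90, 62 and 59 bases before the start, the last 2 overlapping on opposite strands. The Acly window held 4 matches to GGGCGG and none to the others. Over the 12 windows of the 10 genes, CACGTG was in 2 (Pcx upstream and Slc25a1), CCAAT in 8 and GGGCGG in 6, against 6.02%, 33.8% and 32.7% of all 32851 mouse windows. The only windows of Acaca (chr11:84195188-84195437) and Acacb (chr5:114165268-114165517) lie far inside the genes, as does a window of Me1 (chr9:86687278-86687527). The bases before the outermost annotated ends of Acaca and Acacb are therefore not in these counts. The letters TCACNCCAC, the core of a sterol regulatory element bound by SREBP, were in 0 of the 12 windows and in 1.05% of all windows, which says only that these letters are not within 250 bases of these starts. The counts are summed over each gene and do not tell which start of Pcx was used.

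Per kilobase of exon, Fasn had the highest level of the 10 genes. Its median in control mice was 584 CPM per kilobase (463 to 726). Thrsp followed at 324 (268 to 392) and Acly at 302 (218 to 375), and these neighbours overlapped. Mdh1 stood alone at 164 (124 to 167). Slc25a1 (77.8), Me1 (71.1), Acaca (68.6), Acacb (59.2) and Pcx (50.2) formed a run in which each overlapped its neighbours, and Acss2 was lowest at 19.0 (14.4 to 24.7), below the lowest mouse of each other member. The exon length is that of all annotated exons of a gene joined, so a gene with long exons that are rarely used would appear too low. Fasn alone took 0.508% to 1.33% of the counts on genes.

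**Figure D1:**
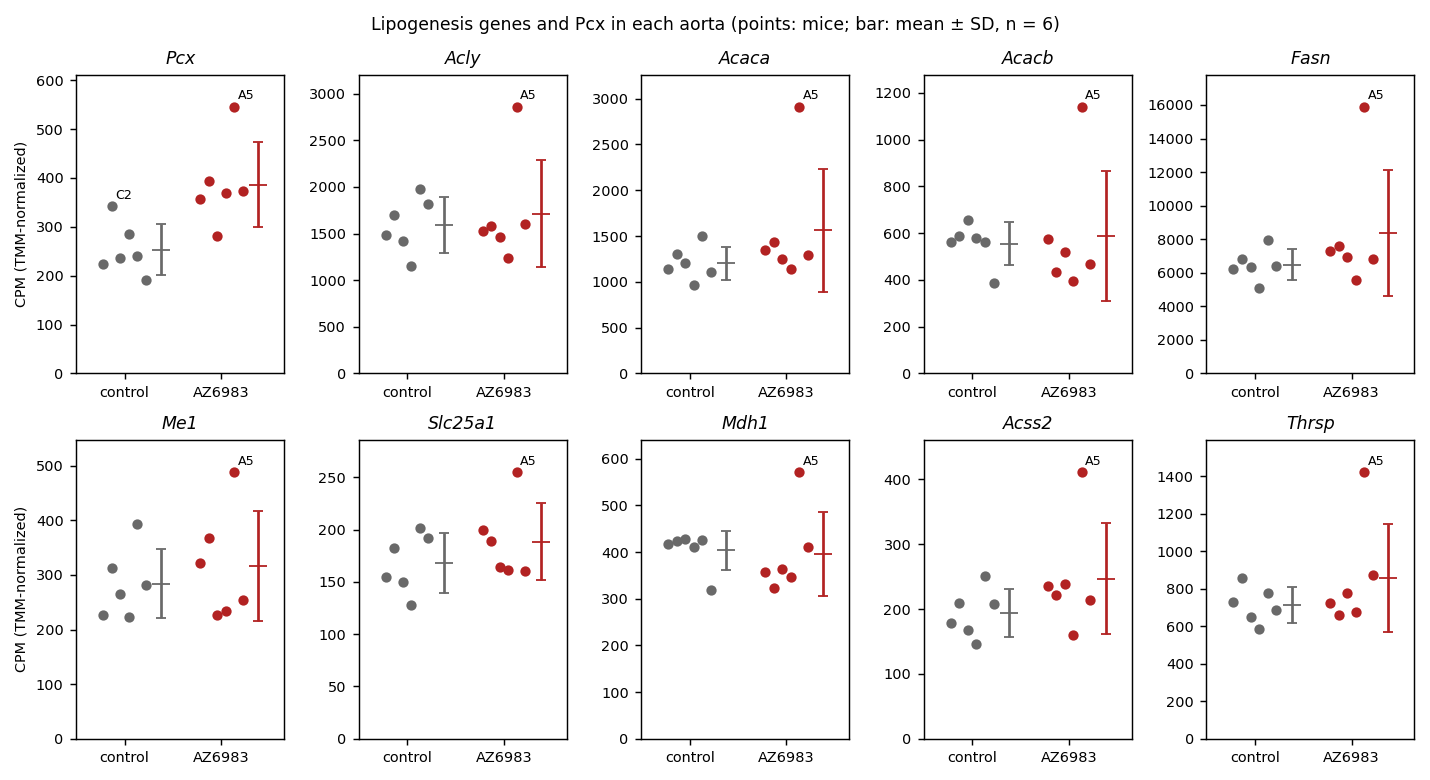
CPM (TMM-normalized, vertical axis from 0) of the 10 genes in each of 6 control mice (grey) and 6 AZ6983 mice (red), with the mean ± SD of each group beside the points. Mouse A5 is the highest of all 12 mice in every panel, and in Pcx 5 of the 6 AZ6983 mice lie above every control, of which C2 is the highest.

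The question asked of the groups was whether treatment with AZ6983 went with another level of these transcripts in the aorta. No member passed 10% FDR, and neither did any of the 15857 genes in this test (0% called by edgeR, with 1616 at an unadjusted p under 0.05). At an unadjusted p under 0.05, 1 of the 10 members, Pcx, was higher in AZ6983 mice, where 7.38% of all genes tested were. No member was without overlap between the groups, where 0.41% of all genes were. The median log2 fold change was 0.21 over the members and 0.01 over all genes tested, and 9 of 10 members were above 0, where 52.4% of all genes were. Without A5 the members' median was 0.039, and 6 of 10 were above 0, a count not set against that of all genes. Members that vary together, as described below, are not separate observations.

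Pcx showed the largest difference of the 10 genes. This enzyme of the mitochondrial matrix carboxylates pyruvate with biotin as its cofactor, and besides fat synthesis it refills the citric acid cycle and starts gluconeogenesis. The 6 control mice had 225, 342, 236, 285, 241 and 191 CPM (C1 to C6), and the AZ6983 mice had 357, 394, 280, 370, 546 and 372 CPM (A1 to A6). Mice A1, A2, A4, A5 and A6 lay above every control, while A3 lay within the control range. The means were 253 ± 52.8 CPM and 386 ± 87.3 CPM (SD, n = 6 each). In edgeR this was a 1.53-fold difference, 0.61 on the log2 scale with a standard error of 0.161 (adjusted p = 0.447, under 0.05 unadjusted). By unadjusted p, Pcx was at place 80 of the 15857 genes. Pcx is among the genes that the study itself selected on these mice, so its direction here is not independent evidence.

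The difference in Pcx did not rest on a single mouse. With each mouse left out in turn, the log2 fold change was 0.47 (without A5) to 0.69 (without C2), and the unadjusted p was under 0.05 each time. DESeq2, run on all genes, gave Pcx a log2 fold change of 0.60 and an adjusted p of 0.0785, past 10% FDR, and called 92 genes in all. Among the controls, C2 had both the highest no-gene share and the highest Pcx. In the treated group these were different mice, A2 with 14.9% on no gene and 394 CPM of Pcx, and A5 with 12.5% and 546 CPM. Once edgeR took that share into account, Pcx had a log2 fold change of 0.41 with a standard error of 0.219, which was not past an unadjusted p of 0.05. In that fit 1.87% of all genes were higher in AZ6983 mice at that p, against 7.38% without the share, so the loss was not particular to Pcx. The part of the share in the difference was not tested.

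**Figure D2:**
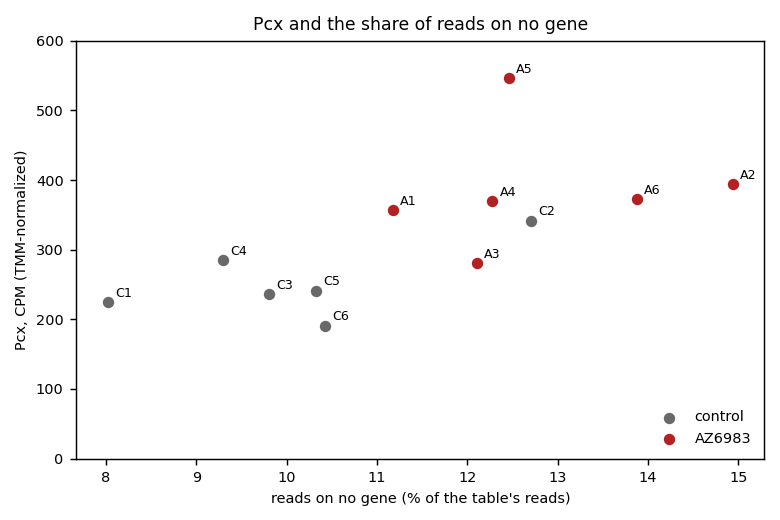
Pcx in CPM (TMM-normalized, vertical axis from 0) against reads on no gene as a percentage of the reads in the table, 1 point per mouse, controls grey and AZ6983 red. C2, at 12.7% and 342 CPM, lies among the AZ6983 mice on both axes, and the other 5 controls lie at 8.02% to 10.4% and 191 to 285 CPM.

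None of the genes that bring acetyl units into the cytosol passed the test between groups. Slc25a1, the citrate carrier of the inner mitochondrial membrane, had 128 to 201 CPM (median 168) in controls and 161 to 255 CPM (median 177) in AZ6983 mice. Its log2 fold change was 0.17, with a standard error of 0.137. Acly, which cleaves citrate to acetyl-CoA and oxaloacetate, had 1488, 1696, 1422, 1149, 1980 and 1818 CPM in C1 to C6 and 1527, 1582, 1467, 1243, 2862 and 1607 CPM in A1 to A6. Apart from A5, every AZ6983 value of Acly lay inside the control range, and edgeR gave a log2 fold change of 0.11 with a standard error of 0.196. Acss2, which makes acetyl-CoA from acetate, had 146 to 251 CPM (median 193) and 160 to 411 CPM (median 228). Its log2 fold change of 0.35 had a standard error of 0.198.

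Nor did those of the enzymes that form malonyl-CoA and build the chain. Acaca, the acetyl-CoA carboxylase of the cytosol that supplies malonyl-CoA for synthesis, had 1141, 1302, 1200, 964, 1499 and 1105 CPM in C1 to C6. In A1 to A6 it had 1346, 1431, 1251, 1138, 2913 and 1293 CPM. Only A5 exceeded the highest control, and the log2 fold change was 0.38 (standard error 0.216, edgeR adjusted p = 0.546). Fasn, the fatty acid synthase, had 6218, 6835, 6362, 5071, 7950 and 6423 CPM in C1 to C6 and 7273, 7602, 6910, 5595, 15904 and 6839 CPM in A1 to A6. The other 5 treated mice lay inside the control range, and A5 lay above it. The log2 fold change of Fasn was 0.37 (standard error 0.234, edgeR adjusted p = 0.577) with all mice and 0.061 (standard error 0.125) without A5.

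Acacb encodes the carboxylase at the mitochondrial surface, whose malonyl-CoA holds back fatty acid entry for oxidation. Its values were 561, 588, 657, 579, 563 and 385 CPM in C1 to C6 and 573, 433, 518, 394, 1142 and 467 CPM in A1 to A6. Without A5, the AZ6983 mice spanned 394 to 573 CPM, and 5 of the 6 controls lay between 561 and 657 CPM. The log2 fold change of Acacb was 0.082 (standard error 0.238, edgeR adjusted p = 0.918) with all mice and −0.24 (standard error 0.135, adjusted p = 0.469) without A5.

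Among the genes that supply or shuttle reducing power, Me1, the cytosolic malic enzyme that yields NADPH, had 224 to 394 CPM (median 274) in controls and 227 to 489 CPM (median 288) in AZ6983 mice. Its log2 fold change was 0.15 (standard error 0.199). Mdh1, the cytosolic malate dehydrogenase, had 319 to 428 CPM (median 420) and 324 to 572 CPM (median 360). Its log2 fold change of −0.030 had a standard error of 0.132. In controls Mdh1 lay between 410 and 428 CPM in 5 mice and at 319 CPM in C6. Thrsp, a nuclear and cytosolic protein that promotes lipogenesis and responds to thyroid hormone, had 587 to 858 CPM (median 709) and 660 to 1422 CPM (median 749), and its log2 fold change was 0.26 (standard error 0.180). For these 3 genes all AZ6983 mice but A5 and, for Thrsp, A6 lay within the control range.

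**Figure D3:**
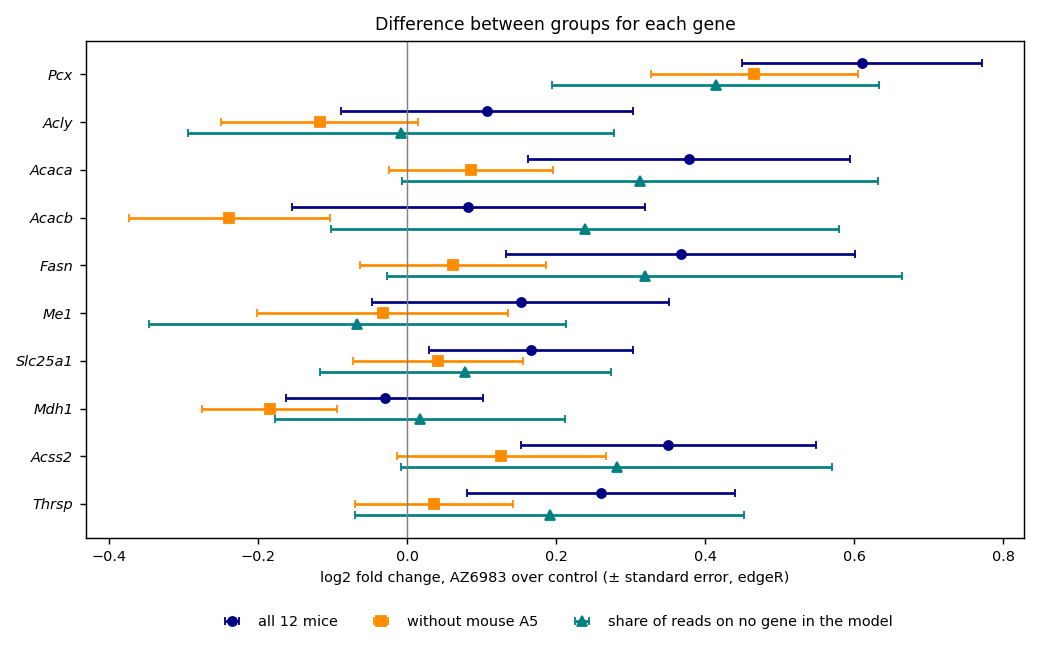
Log2 fold change of AZ6983 over control for each of the 10 genes, with standard errors from edgeR, for all 12 mice (circles), without mouse A5 (squares) and with the no-gene share as a covariate (triangles). Leaving out A5 moves Fasn from 0.37 to 0.061 and Acaca from 0.38 to 0.085, and Pcx from 0.61 to 0.47.

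Mouse A5 was the highest of the 12 mice for each of the 10 members. The members took 2.22% of its counts on genes, against 0.956% to 1.41% in the other 11 mice. A5 also had the highest adipocyte score of all mice and, at 5.60, the highest brown adipocyte score among treated mice. A score is the mean log2 CPM of the markers of a cell type. A5 further had the lowest scores of the 12 mice for smooth muscle (9.88), macrophages (5.47) and fibroblasts (8.27), and the highest for endothelium (7.00) and skeletal muscle (6.07), whose part in its values was not tested. Without A5, the log2 fold change was −0.12 for Acly, 0.085 for Acaca, −0.033 for Me1, 0.042 for Slc25a1, −0.18 for Mdh1, 0.13 for Acss2 and 0.036 for Thrsp. No member passed 10% FDR without A5, and 27 genes did.

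The fat in each aorta was then measured by marker transcripts. The adipocyte score, from 10 markers of white and brown fat cells, was 7.24 ± 0.202 in controls and 7.32 ± 0.244 in AZ6983 mice (SD, n = 6 each; exact permutation test, two-sided, p = 0.567). Its markers did not move alike. Means in control and AZ6983 mice were 327 and 408 CPM for Adipoq, 322 and 334 for Plin1, and 469 and 746 for Cfd. They were 26.7 and 36.9 for Retn, 55.9 and 57.1 for Adrb3, 394 and 406 for Lipe, and 125 and 136 for Pparg. Plin4 (568 and 530), Cidec (366 and 346) and Lep (16.2 and 6.52) were lower in AZ6983 mice. The brown adipocyte score was 5.41 ± 0.261 in controls and 4.99 ± 0.352 in AZ6983 mice (SD, n = 6 each), a difference of −0.42 (exact permutation test, two-sided, p = 0.0433, 0.303 after adjustment over 14 measures), with 5 of the 6 treated mice below 5 of the 6 controls. Of the 8 brown markers named for the score, Gyk was not among the rows used, Zic1 had 0 to 3 counts and Bmp8b 2 to 43, and these 2 entered the score beside the other 5. Without Zic1, whose counts were too low for testing, the difference was −0.50 (exact permutation test, two-sided, p = 0.0628), no longer under 0.05. Bmp8b averaged 0.815 CPM in controls and 0.308 CPM in treated mice. Ucp1, the uncoupling protein of brown fat, averaged 2627 CPM in controls and 1869 CPM in treated mice, and the fatty acid elongase gene Elovl3 88.7 and 48.5 CPM. Cidea averaged 591 and 576 CPM, Otop1 112 and 99.6 CPM, and Dio2, which activates thyroid hormone, 242 and 262 CPM. In such bulk samples, fewer cells of a type and less RNA per cell cannot be told apart. Smooth muscle markers, which define the labelled tissue, scored 9.88 to 10.6 in every mouse, and hepatocyte markers −3.30 to −0.85. Thymocyte markers scored 5.74 in A4 and −2.56 to 1.30 in the other mice. A4 also had the most counts on genes, 35864666.

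Across mice, with the treatment group kept in the model, 6 of the 10 members had a positive slope on the adipocyte score at an unadjusted p under 0.05, where 8.7% of all genes had one. None passed 10% FDR, and neither did any of the 15847 genes counted (0% called by edgeR, with 2853 at an unadjusted p under 0.05). DESeq2 called 1413 of 25274 genes, 640 rising and 773 falling, and Pcx, Acaca, Acacb, Mdh1 and Thrsp were among the rising. Without A4, edgeR called 778 of 15966 genes, 541 rising and 237 falling. Among the rising were Pcx, Acaca, Thrsp and Acacb (edgeR adjusted p = 0.0942 for the first 3 and 0.0946 for Acacb). A4 is the mouse with the high thymocyte score, whose part in this change was not tested. The slope is the change in log2 CPM of a gene per unit of score. It was 1.003 for Pcx (standard error 0.255), 1.04 for Thrsp (0.303), 1.13 for Acaca (0.391), 0.69 for Mdh1 (0.253), 1.21 for Acacb (0.443) and 1.09 for Fasn (0.442), with edgeR adjusted p of 0.178 for Pcx to 0.231 for Fasn. The slopes of Acly (0.80), Acss2 (0.83), Me1 (0.68) and Slc25a1 (0.47) did not reach that p.

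These slopes rested on few mice. Without A5, the slope was −0.16 for Fasn, −0.19 for Acly, 0.026 for Acaca and 0.0043 for Acacb, and of the 10 members only Pcx kept an unadjusted p under 0.05 (slope 0.88, standard error 0.360, edgeR adjusted p = 0.576), where 4.03% of genes had a positive slope at that p. The mice farthest from the median score were A5 (7.74) and C2 (7.62), the treated and the control mouse with the most Pcx. Without both, the slope of Pcx was 0.41 (standard error 0.551) and 8 of the 10 slopes were below 0, a count not set against that of all genes. In the remaining 10 mice a relation of these genes to the adipocyte score was not detectable. Their scores spanned only 7.07 to 7.46, and the standard error for Pcx had been 0.255 with all mice. This fit therefore cannot tell an absent relation from one too imprecise to detect.

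The brown adipocyte score gave more calls. With the group in the model, 3 of the 10 members rose with it at 10% FDR, where 5.99% of all genes did. Acacb had a slope of 1.34 (standard error 0.144, edgeR adjusted p = 0.00626), the smallest adjusted p of any gene in this test. Mdh1 had a slope of 0.67 (standard error 0.129, adjusted p = 0.0253) and Acaca one of 0.86 (standard error 0.265, adjusted p = 0.0883). The slopes of Fasn (0.87, adjusted p = 0.119), Thrsp (0.66, adjusted p = 0.141), Pcx (0.55, adjusted p = 0.21), Acss2 (0.65), Acly (0.52), Me1 (0.51) and Slc25a1 (0.21) missed the threshold. With a prior count of 0.5 in the score, 0 genes and 0 members passed (edgeR, with 2596 genes at an unadjusted p under 0.05). Under the 9 other settings that kept every mouse or left out a pair, Acacb and Mdh1 passed, and Acaca passed in 5. Among these was a score without Zic1, a marker with 0 to 3 counts, under which 1708 genes passed by edgeR. Acaca was lost with limma-voom, with no group term, with the adipocyte score in the model, and without A4 and C3 (adjusted p = 0.11), and in 7 of the 12 fits that left out 1 mouse.

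Here too A5 mattered, though not alike for each gene. Without A5, 0 genes passed 10% FDR by edgeR, and 1578 genes had an unadjusted p under 0.05. Acacb then had a slope of 0.97 (standard error 0.136, edgeR adjusted p = 0.203) and Mdh1 one of 0.47 (standard error 0.161, adjusted p = 0.353), and both were under 0.05 unadjusted. Acaca (0.15) and Fasn (0.11) had slopes smaller than their standard errors of 0.260 and 0.297. Acacb and Mdh1 were also past 10% FDR without the mice farthest from the median of this score, A4 and C3 (slopes 1.44 and 0.83, adjusted p = 0.0140 and 0.0170).

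**Figure D4:**
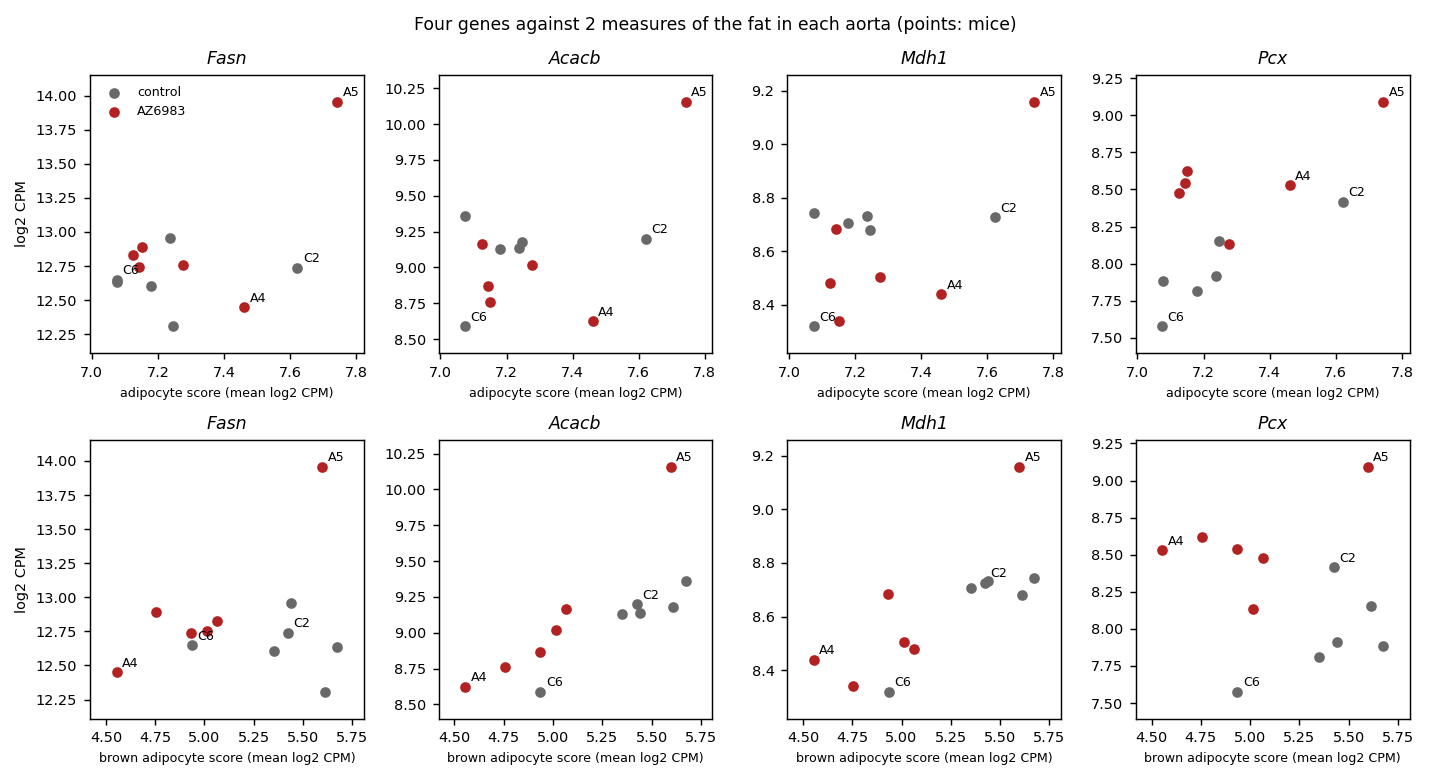
Log2 CPM of Fasn, Acacb, Mdh1 and Pcx against the adipocyte score (upper row) and the brown adipocyte score (lower row), both in mean log2 CPM, 1 point per mouse, controls grey and AZ6983 red. In the lower row Acacb rises with the score in both groups. Mdh1 is at 8.32 in control C6 and at 8.68 to 8.74 in the other controls. In treated mice Mdh1 is at 9.16 in A5 and at 8.34 to 8.68 in the others. The slope of Fasn is 0.11 without A5, and most treated mice lie above the controls in Pcx at lower brown adipocyte scores.

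With both fat scores held equal in the model, the log2 fold change was above that without them for 9 of 10 members, a shift that was not itself tested or counted over all genes. The brown adipocyte score was itself lower in AZ6983 mice (difference −0.42), and all 10 members had positive slopes on it with the group in the model. Holding that score equal therefore raises their log2 fold changes by construction. The median log2 fold change of the 10 members was 0.38, against −0.01 for all genes. At an unadjusted p under 0.05, 3 of 10 members were higher in AZ6983 mice, where 2.95% of all genes were, and none passed 10% FDR, nor did any of 15841 genes (0% called by edgeR, with 881 at an unadjusted p under 0.05). The 3 were Pcx (0.68, standard error 0.140, edgeR adjusted p = 0.679), Acacb (0.47, standard error 0.0964, adjusted p = 0.679) and Acaca (0.51, standard error 0.197, adjusted p = 0.862). Fasn was at 0.50 (standard error 0.229). Without A5, Pcx was at 0.71 (standard error 0.190) and Acacb at 0.32 (0.0981), both still under 0.05 unadjusted, while Acaca was at 0.17 (0.192) and Fasn at 0.11 (0.216). With the no-gene share in the model as well, Pcx was at 0.55 (0.144) and Acacb at 0.52 (0.109), again both under 0.05 unadjusted, where 2.41% of genes were higher at that p, and Acaca, at 0.43 (0.235), was not. With only the brown adipocyte score in the model, 7 of the 10 members were higher at that p, where 7.06% of all genes were. They were Pcx, Acaca, Acacb, Fasn, Mdh1, Acss2 and Thrsp, and the median of the members was 0.52. With only the adipocyte score, Pcx alone was higher at that p, where 5.85% of all genes were. No member passed 10% FDR in either fit, and neither was run without A5.

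How the members varied together was described by Pearson's r of log2 CPM over the 12 mice after the group means were taken off, which is a description of libraries that share depth and tissue makeup. The 36 pairs of members other than Pcx had a median r of 0.83 (0.33 to 0.99), highest for Acaca with Fasn. Without A5 the median was 0.58 (−0.38 to 0.95). The 9 pairs of Pcx with the others had a median of 0.54, and of 0.12 without A5.

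Seen without A5, the members fell into sets, which were drawn up after the values were seen. Fasn, Acaca, Acly, Acss2, Slc25a1 and Me1 had r of 0.69 (Me1 with Acss2) to 0.95 (Acaca with Fasn) among themselves. Acacb and Mdh1 had an r of 0.73 with each other, and Acacb had −0.21 to 0.25 with those 6. Thrsp had 0.20 (with Me1) to 0.65 (with Acly) with them. Pcx had its highest r, 0.39, with Mdh1.

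The genes whose pattern was most like each member were drawn from all genes tested. Over the 12 mice, the gene nearest to Mdh1 was Uqcrc2, a subunit of respiratory complex III (r = 0.998, and 0.996 without A5), followed by Uqcrq, Ndufa9, Crat and Sucla2, all of mitochondrial energy metabolism, at 0.992 to 0.996. Nearest to Acly were Cyb5b (0.981), Acss2 (0.963) and Scd1 (0.954), the stearoyl-CoA desaturase of fat cells. Fasn followed Acaca (0.990), Lactb2 (0.970) and Pgd (0.962), an NADPH-making enzyme of the pentose phosphate pathway. Acacb followed Adck1 (0.986) and Mcee (0.968), and Thrsp followed B930094E09Rik (0.974) and Tlcd1 (0.970).

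The 8 genes nearest to Pcx held no other member. They were Ghr, the growth hormone receptor (r = 0.926, and 0.932 without A5), Ppp2r1b (0.923), Cebpb (0.920), Pfkfb1 (0.914), Vegfa (0.907), Txn2 (0.907), Dlc1 (0.902) and Mrap (0.897). Without A5 these 8 had r of 0.839 to 0.932, but the 8 nearest genes were then Ghr, B3galt2 (0.920), Slfn3 (0.903), Nrg4 (0.902), Ppp2r1b (0.892), Atad2b (0.885), Gm37333 (0.885) and Car5b (0.878), so that only Ghr and Ppp2r1b were among the nearest in both. Me1 was nearest to Gm24727 (0.907) and Akr1b8 (0.900), and Slc25a1 to Atp4b (0.936) and Acly (0.913).

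The wider route was read from 5 lists of genes, all of which were in the table and passed the filter, and no gene of any list passed 10% FDR between the groups by edgeR. DESeq2, run on all genes, called Srebf1 (adjusted p = 6.11e-07) and Scd2 (adjusted p = 0.00122) of these lists. The counts that follow stand against 7.38% of all genes higher at an unadjusted p under 0.05. Of 23 genes that bring pyruvate into the citric acid cycle and take citrate and its partners across the membrane, 1 was higher in AZ6983 mice at an unadjusted p under 0.05 and 0 were lower (median log2 fold change −0.02). It was Slc25a10, the dicarboxylate carrier, with 7.86 to 20.4 CPM in controls and 15.2 to 27.1 CPM in AZ6983 mice (log2 fold change 0.71, standard error 0.234, edgeR adjusted p = 0.448). The mitochondrial pyruvate carrier genes Mpc1 and Mpc2 and the pyruvate dehydrogenase gene Pdha1 had log2 fold changes of −0.12, −0.26 and −0.02. Of the 10 genes of cytosolic and mitochondrial NADPH supply, 0 were past that p (median 0.04), and of the 7 other biotin enzymes and biotin genes 0 were (median −0.00469), and the biotin carboxylase genes Pcca, Pccb, Mccc1 and Mccc2 had values of −0.19 to 0.00 with standard errors of 0.152 to 0.210.

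Among 17 regulators the median log2 fold change was 0.06. Srebf1, which encodes the SREBP-1 factors that drive lipogenic genes, had 112 to 218 CPM in controls and 249 to 342 CPM in AZ6983 mice, without overlap, as 0.41% of all genes were (log2 fold change 1.02, standard error 0.155, adjusted p = 0.157 by edgeR). Srebf2, its relative for cholesterol synthesis, was at 0.45 (standard error 0.132), and Prkaa1, a catalytic subunit gene of AMP-activated kinase, at −0.097 (0.0444), and both were under 0.05 unadjusted. Mlxipl, which encodes ChREBP, was at 0.24 (standard error 0.220). Of 19 genes that use malonyl-CoA or new fatty acid, 3 were higher at an unadjusted p under 0.05 (median 0.02). These were Scd2, a desaturase (0.97, standard error 0.195), whose groups did not overlap, Acsl3, an acyl-CoA synthetase (0.42, standard error 0.140), and Elovl5, an elongase (0.26, standard error 0.0865). Srebf1 and Scd2 are, like Pcx, genes that the study selected on these mice.

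With the brown adipocyte score, 15 of the 23 pyruvate and citrate genes rose at 10% FDR, as did 5 of 10 NADPH genes, 8 of 19 genes of malonyl-CoA and fatty acid use, 4 of 7 biotin genes and 1 of 17 regulators, against the 5.99% of all genes. Pdk4, a kinase that shuts pyruvate dehydrogenase, had the steepest of these slopes at 1.81 (adjusted p = 0.0236 by edgeR). The biotin carboxylase gene Pcca had 1.02 (adjusted p = 0.03), and Mdh2, the mitochondrial relative of Mdh1, had 0.85 (adjusted p = 0.0253). Me2, a malic enzyme of mitochondria, was the single gene of the lists that fell with the score, with a slope of −0.52 (adjusted p = 0.0742). As for the members, 0 genes passed 10% FDR in this test without A5.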

How the data were processed

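Total RNA of the thoracic aorta of 6 control and 6 AZ6983 mice had been depleted of ribosomal RNA, made into stranded libraries and sequenced from both ends. According to the submitters' processing notes the tools included CASAVA 1.8.2, STAR 2.5.2b and HTSeq 0.6.1p1 with the mm10 build. The annotation and the strand setting are not given in the sources used here. The authors deposited raw counts per gene symbol, without normalization, and removed reads of low average quality beforehand. The 3 entries of that table that name no gene entered neither library sizes nor tests. As percentages of all its reads they held those on no gene (8.02% to 14.9%), those aligned to several places (18.1% to 23.2%) and ambiguous reads (0.606% to 0.698%).

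Groups came from the sample labels. edgeR 4.0.16 (R 4.3.3) was used with TMM normalization, its filter on low counts and its quasi-likelihood test, for the group, for the slope on each fat score with the group in the model, and for the group with both scores in the model. Standard errors are the size of the effect divided by the root of F. Scores are means of log2 CPM with a prior count of 2 over the listed markers, and markers were left out of the counts of genes called. DESeq2 1.42.0, which the study used, and limma 3.58.1 served as alternatives, besides other normalizations and filters and each mouse left out. Score comparisons were exact permutation tests. The steps were tested on simulated data whose planted effects were larger than those reported here for members and list genes. Power at the reported sizes was not tested. The labels state no pairing, and p-values measure the spread between mice. Counts limit precision little here, since the smallest count of a member was 3435. The members, markers and lists were chosen with earlier results of these data known. The rule for named genes was every member, and each gene of the lists with an unadjusted p under 0.05, with other list genes given as examples after their values were seen. For likeness, the 5 genes with the highest r were taken for each member and 8 for Pcx. Leaving out the 2 mice farthest from a median score, a brown score from the markers that passed the filter, scores and the share of reads on no gene with each mouse left out, and that share in the model with both scores were chosen after seeing the data.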

Additional observations from a re-analysis of the deposited data

Results flagged for a closer look

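In 11 of 48 groups of 6 values examined (each member, score and library measure in each treatment group), 1 mouse stood far from the other 5 by Dixon's test, where chance flags about 1 in 20 groups (2.4 of 48). For 5 members this was A5 among the AZ6983 mice. On the log2 CPM scale A5 was at 11.48 for Acly (others 10.28 to 10.65), 11.51 for Acaca (10.15 to 10.48), 10.16 for Acacb (8.62 to 9.16), 13.96 for Fasn (12.45 to 12.89) and 10.47 for Thrsp (9.37 to 9.77). The members took 2.22% of the counts of A5, against 1.08% to 1.33% in the other AZ6983 mice. Because every member was highest in the same library, these flags are not independent of each other.

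Among controls, C6 was low, at 8.59 for Acacb (others 9.13 to 9.36) and 8.32 for Mdh1 (8.68 to 8.74), and its endothelium score was 6.52 (6.71 to 6.78). C2 was high, with an adipocyte score of 7.62 (others 7.07 to 7.25) and a hepatocyte score of −0.85 (−3.30 to −2.60).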

How the results depend on the processing

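The counts of genes past 10% FDR depended on the tool. Between the groups, edgeR called 0 genes, DESeq2 92 on all genes and 84 on the filtered genes, limma-voom with sample quality weights 4, and edgeR with the adipocyte score in the model 1. With 1 mouse left out the count was 0 to 27 (27 without A5, 1 without C6 and 1 without A1). For the adipocyte score DESeq2 called 1413 genes, and with 1 mouse left out edgeR called 0 to 778 (778 without A4, 35 without A6, 8 without C3, 1 without C2 and 1 without A5). For the brown adipocyte score edgeR called 1437 genes, 0 with a prior count of 0.5 in the score, and 0 (without A5) to 1687 with 1 mouse left out. The brown score from the markers that passed the filter called 1708 genes, with Acacb, Mdh1 and Acaca among them as before.

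Directions of small effects turned, and the causes were not tested. Between the groups, limma-voom with quality weights gave −0.16 for Acacb and −0.056 for Me1, and the adipocyte score in the model −0.074 for Acacb. The brown score in the model gave 0.24 for Mdh1, there under 0.05 unadjusted. The share of reads on no gene gave −0.0087 for Acly, −0.067 for Me1 and 0.017 for Mdh1. Without a group term the brown slope of Pcx was −0.10. Without A5 and C2 the adipocyte slopes were −0.78 (Acly), −0.33 (Acaca), −0.28 (Acacb), −0.66 (Fasn), −0.72 (Me1), −0.55 (Slc25a1), −0.74 (Acss2) and −0.18 (Thrsp).

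With 1 mouse left out, log2 fold changes ranged from −0.12 to 0.19 for Acly, −0.24 to 0.18 for Acacb, −0.033 to 0.25 for Me1 and −0.18 to 0.0043 for Mdh1. Adipocyte slopes ranged from −0.19 to 0.98 (Acly), −0.16 to 1.42 (Fasn), −0.095 to 0.83 (Me1), −0.063 to 0.59 (Slc25a1) and −0.12 to 1.01 (Acss2), and brown slopes from −0.20 to 0.86 (Acly), −0.020 to 0.68 (Me1) and −0.26 to 0.44 (Slc25a1). With both scores in the model the ranges were −0.23 to 0.41 (Acly), −0.051 to 0.38 (Me1) and −0.099 to 0.33 (Slc25a1). The difference in adipocyte score ranged from −0.028 to 0.14, and that in brown adipocyte score from −0.56 to −0.33 (p = 0.0108 to 0.0974, over 0.05 without 10 of the 12 mice, exact permutation tests). Pcx was higher in AZ6983 mice under every alternative of the group tests that was run. No paired analysis was possible because the labels give the groups no shared replicate numbers.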
